A study of Bos taurus with 16 samples.

Results

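DNA methylation of SOX9 was examined in endometrial cells of postpartum dairy cows. The table lists 199395 cytosine positions (called sites here), of which 127870 carry a gene symbol, and 41 of these carry the symbol SOX9 (ENSBTAG00000045824). All 41 were kept. The gene was chosen by its difference in percent methylation between the diets, seen in earlier results from the same libraries, so its levels by diet are given as a description, with no test. The comparison by pregnancy outcome, pooled over the diets, did not serve in that choice, and it was tested.

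The cows were multiparous Holstein-Friesians of one commercial farm. The methionine groups (MET) received rumen-protected methionine (RPM), a form of the amino acid that escapes breakdown in the rumen, every day from day 12 after calving, and the control groups (CON) received the same basal ration without it. All cows were inseminated at heat on days 50 to 64 after calving, and the endometrium was brushed 4 to 8 h later. The outcome of that insemination split each diet into cows that resulted in pregnancy (P) and cows that resulted in no pregnancy (noP), which gave CON_P, CON_noP, MET_P and MET_noP with 4 reduced representation bisulfite sequencing (RRBS) libraries each. More endometrial samples than libraries were taken, and how the cows were divided over the libraries is not given in the sources used here. The p-values therefore measure the spread between libraries. Values are percentages of methylated calls at one site. The read numbers behind them were not used here, so the exact depth of a single value is not given.

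SOX9 encodes a transcription factor with an HMG-box, a domain that bends DNA. It drives cartilage formation and the development of the testis, and in the uterus it is known from the gland epithelium and its progenitor cells. Methylation of CpG sites is carried out by DNA methyltransferases with S-adenosylmethionine, which is made from methionine, as the methyl donor. Dense methylation around a gene's start commonly goes with low transcription, whereas methylation elsewhere in a gene has no such fixed meaning. RNA was not measured in these libraries, and the RRBS table does not say in which exon or intron a site lies.

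The sites lie on chromosome 19 within 1553 bases (58919668 to 58921220, ARS-UCD1.2) and fall into 4 blocks separated by more than 200 bases. Block 1 holds 4 sites in 26 bases (58919668 to 58919693), and block 2 holds 6 sites in 26 bases (58919948 to 58919973). Block 3 holds 29 sites in 171 bases (58920179 to 58920349). Block 4 consists of 2 sites, at 58921103 and 58921220.

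Methylation was lower from block to block along the stretch. Over all 16 libraries, the site means ranged from 77.7% to 83.3% in block 1, from 67.2% to 81.5% in block 2, from 16.2% to 56.7% in block 3 and from 7.63% to 8.97% in block 4. Block 3 was uneven from site to site, and the unevenness recurred between libraries. Its last site (58920349) had a mean of 16.2% and its site at 58920242 a mean of 23.4%, while its site at 58920194 reached 56.7%. The profile of the 29 sites in one library correlated with the mean profile of the other libraries with a median Pearson's r of 0.74 (0.47 to 0.91, over 29 sites that share the base composition of one stretch).

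**Figure D1:**
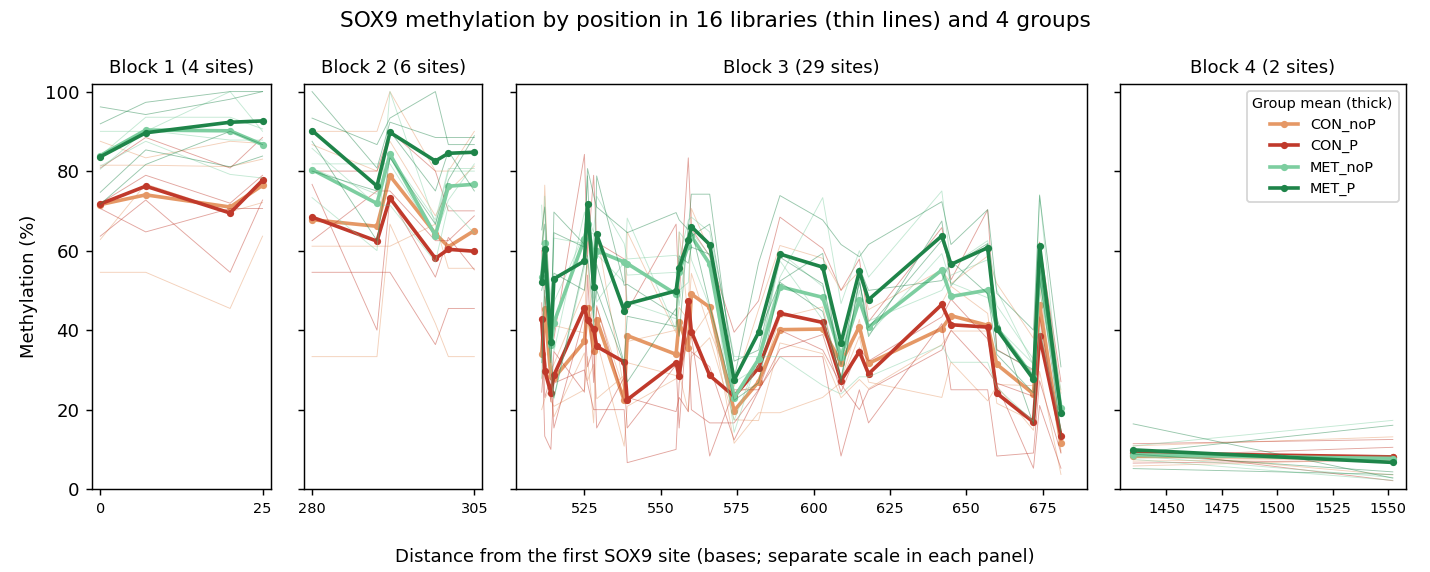
Methylation (%) of the 41 SOX9 sites against the distance in bases from the first site, in 4 panels for the 4 blocks, with thin lines for the 16 libraries and thick lines for the means of the 4 groups. In blocks 1 to 3 both MET lines (green) run above both CON lines (red and orange) at nearly all sites, and in block 4 the 4 lines lie together below 10%.

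SOX9 was more methylated in the MET than in the CON libraries of either outcome. Averaged over the 41 sites, the CON_P libraries 14, 18, 26 and 30 had 36.3%, 33.5%, 33.8% and 59.1%, and the MET_P libraries 15, 19, 27 and 31 had 67.5%, 52.3%, 51.6% and 59.5%. Library 30 of CON_P stood far above the rest of its group and inside the MET_P range, and the other 3 CON_P libraries lay below that range. The CON_noP libraries 12, 16, 24 and 28 had 57.7%, 32.9%, 47.2% and 32.5%, and the MET_noP libraries 13, 17, 25 and 29 had 52.7%, 61.1%, 50.3% and 54.0%. Here library 12 of CON_noP lay inside the MET_noP range and the other 3 CON_noP libraries lay below it. The numbers are those of the table's column headers.

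The group means were 54.5% ± 4.63 (SD, n = 4) in MET_noP, 57.7% ± 7.41 in MET_P, 42.6% ± 12.2 in CON_noP and 40.7% ± 12.4 in CON_P. MET_P was 17.1 percentage points above CON_P, and MET_noP was 11.9 points above CON_noP. Of the 8 CON libraries, 6 were below the lowest MET library (50.3%), and 3 of the 8 MET libraries were above the highest CON library (59.1%), so the diets overlapped through CON libraries 12 and 30. Without library 30 the difference between MET_P and CON_P was 23.2 points, and without library 12 the difference between MET_noP and CON_noP was 16.996 points. Other libraries left out made them smaller, to 13.8 points without library 15 of MET_P and 8.58 points without library 28 of CON_noP. Over the whole table the library means ranged from 61.3% to 65.1%, with r = 0.26 between a library's mean over all sites and its SOX9 mean (16 libraries).

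**Figure D2:**
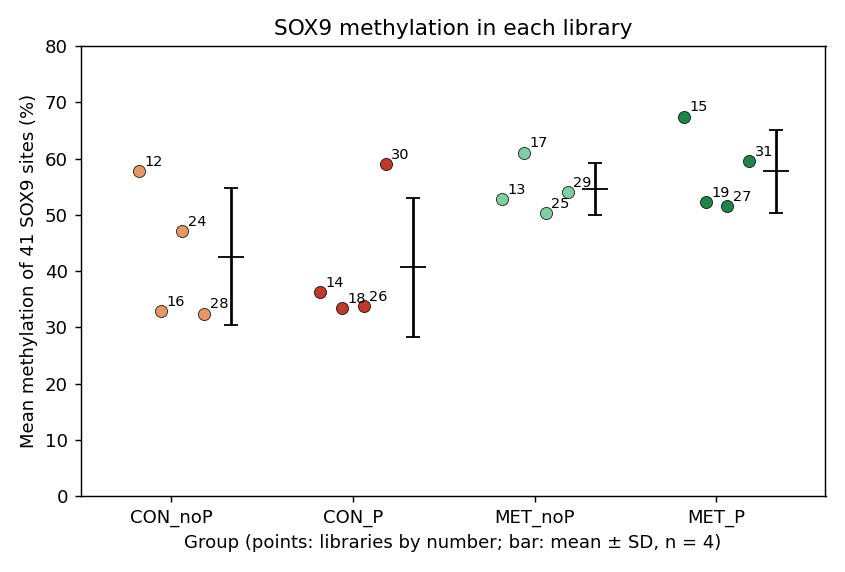
Mean methylation (%) of the 41 SOX9 sites in each of the 16 libraries (points, labelled by library number) by group, with bars for the group mean ± SD (n = 4). The MET libraries sit between 50.3% and 67.5%, while 6 of 8 CON libraries sit between 32.5% and 47.2% and libraries 12 and 30 sit at 57.7% and 59.1%.

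The difference between diets was seen in blocks 1, 2 and 3 and not in block 4. In block 1 the CON libraries averaged 73.5% ± 10.7 (SD, n = 8) and the MET libraries 88.6% ± 6.68. In block 2 the means were 65.4% ± 16.4 and 80.1% ± 6.98, and in block 3 they were 34.6% ± 12.3 and 50.0% ± 6.71. In block 4 they were 8.36% ± 2.46 and 8.24% ± 3.59. Blocks 1 to 3 thus differed by similar numbers of points at unlike levels, and the sparsely methylated block 4 differed by −0.12 points.

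Split by outcome, block 1 was 15.8 points higher in MET_P than in CON_P and 14.5 points higher in MET_noP than in CON_noP. The values for block 2 were 20.9 and 8.37 points, and those for block 3 were 17.6 and 13.2 points. Block 2 had the most unequal pair of values, with MET_P at 84.7% ± 6.75 and MET_noP at 75.5% ± 3.57 (SD, n = 4). Block 4 gave −0.30 and 0.05 points.

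By site, the MET_P mean exceeded the CON_P mean at 40 of 41 sites, against 53.6% of all sites in the table, and the MET_noP mean exceeded the CON_noP mean at 39 of 41, against 57.3%. Both held at 39 SOX9 sites and at 30.9% of all sites. The exceptions were 58921220 in block 4, for both outcomes, and 58919967 in block 2 for noP (−0.47 points). These counts are what the gene was chosen for, and sites of one stretch are often read on the same molecules, so they are not independent.

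**Figure D3:**
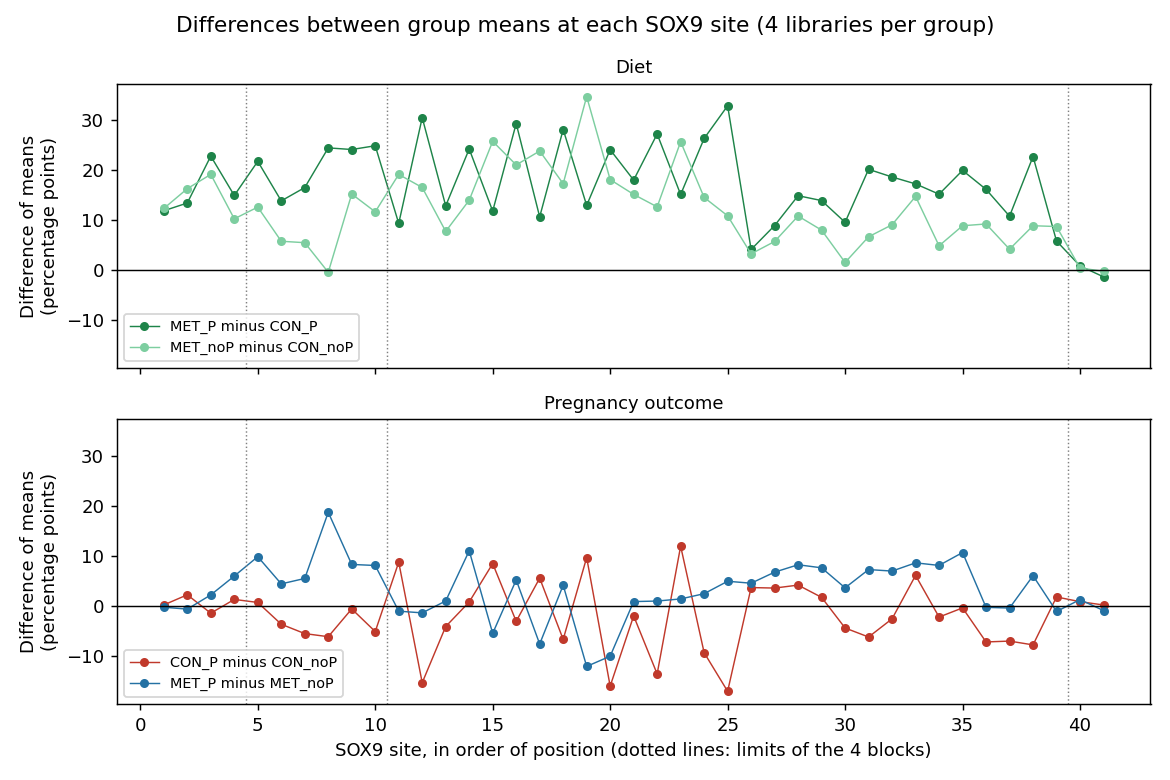
Differences between group means (percentage points, 4 libraries per group) at each of the 41 SOX9 sites in order of position, for diet (upper panel) and pregnancy outcome (lower panel), with dotted lines between the 4 blocks. The diet differences lie above 0 at 40 sites for P and 39 for noP, whereas the outcome differences lie on both sides of 0.

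At single sites few comparisons separated the 4 libraries of one group from the 4 of the other. All MET_P libraries were above all CON_P libraries at 5 SOX9 sites, where 1.92% of all sites in the table did so, and the same order held for MET_noP over CON_noP at 4 sites, against 1.85%. No SOX9 site showed the reverse order, which 1.17% and 0.903% of all sites did. No site separated the groups in both comparisons.

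Of the 5 sites, 58919688 in block 1 had 71.9%, 54.5%, 70.6% and 80.8% in CON_P and 100%, 81.1%, 90% and 98.1% in MET_P, in the order of the libraries above. The lowest MET_P library was only just above library 30 there. At 58919969 in block 2, CON_P had 45.5%, 63.3%, 62.5% and 70%, and MET_P had 86.7%, 85.0%, 77.8% and 88.5%. Its neighbour 58919973 had CON_P values from 45.5% to 70% and MET_P values from 75.0% to 88.9%.

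The remaining pair of sites lies in block 3. At 58920194 the CON_P libraries had 53.8%, 30.8%, 26.7% and 58.6% and the MET_P libraries had 80.6%, 58.7%, 69.2% and 78.8%, with library 19 of MET_P and library 30 of CON_P nearly equal. At 58920180 CON_P ranged from 13.3% to 48.3% and MET_P from 50.0% to 71.0%.

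The 4 sites that separated MET_noP from CON_noP were 58919675 in block 1 and 58920193, 58920206 and 58920227 in block 3. The widest gap was at 58920206, where CON_noP had 25%, 28.6%, 25% and 10.8% and MET_noP had 52.0%, 61.8%, 57.1% and 57.6%, a difference of 34.8 points between the means. At 58920193 CON_noP ranged from 25% to 50.0% and MET_noP from 56.0% to 69.7%, and at 58920227 the ranges were 19.4% to 42.9% and 52.0% to 67.6%. At 58919675 they were 54.5% to 83.3% and 87.5% to 93.5%.

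Single libraries decided these counts. Without library 30 of CON_P, the 4 MET_P libraries were above the other 3 CON_P libraries at 33 of 41 SOX9 sites, where 4.61% of all sites did so. Without library 12 of CON_noP, the count against MET_noP was 14 sites, where the share of all sites was 4.71%. Leaving out library 27 of MET_P gave 9 sites (3.2% of all sites), and leaving out library 13 of MET_noP gave 8 (2.95% of all sites). With 3 libraries in a group such a separation was more frequent over the whole table as well.

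Libraries 30 and 12 were high at most sites of blocks 1 to 3 and not in block 4, where they had 6.94% and 6.45%. Library 30 was above the other 3 CON_P libraries at 39 of 41 sites, and library 12 was above the other 3 CON_noP libraries at 36. In block 3, library 30 had 55.2% where the other CON_P libraries had 23.4% to 30.2%, and library 12 had 51.0% where the other CON_noP libraries had 26.1% to 38.4%. Neither stood apart in the mean over all sites (62.2% and 63.3%). What else distinguishes these libraries was not tested.

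**Figure D4:**
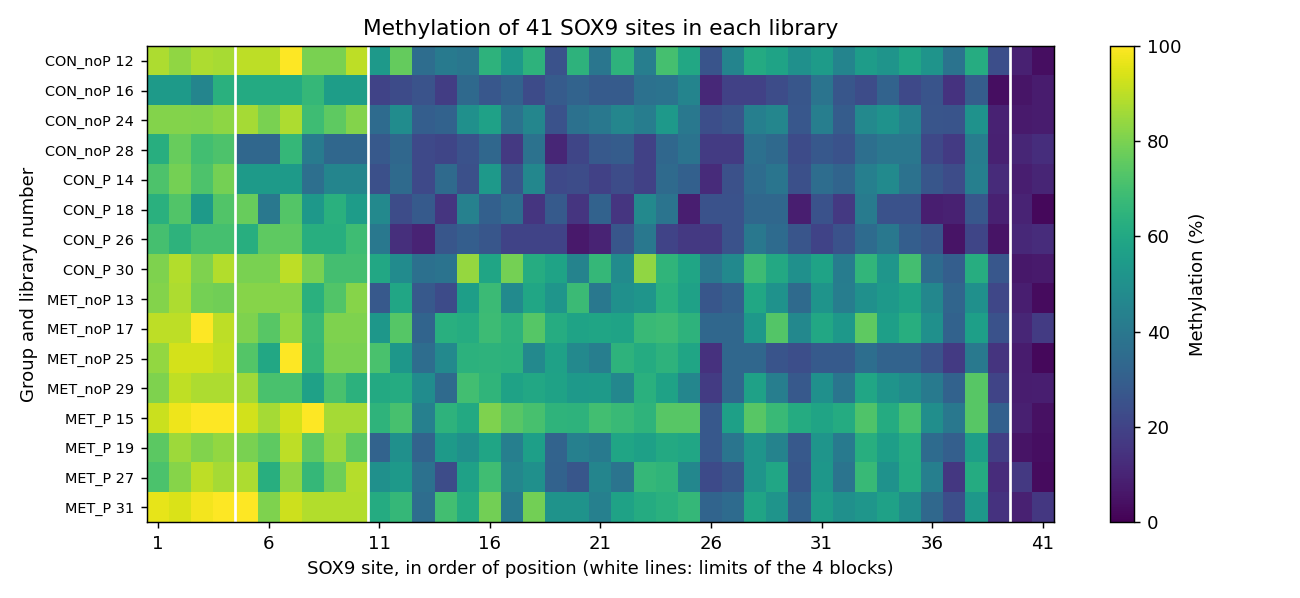
Methylation (%, colour scale from 0 to 100) of the 41 SOX9 sites (columns, in order of position, with white lines between the 4 blocks) in the 16 libraries (rows, by group). The rows of CON libraries 12 and 30 resemble the MET rows in blocks 1 to 3, and the last 2 columns (block 4) are dark in every row.

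At SOX9 the spread within the CON groups was wider than within the MET groups. At 35 of 41 sites the SD over the 8 CON libraries exceeded that over the 8 MET libraries, with medians of 14.3 and 8.95 points. The SD of the SOX9 mean was 12.4 in CON_P and 12.2 in CON_noP, where the median over the 5725 genes with at least 5 sites was 2.79 and 2.22. In these groups 113 and 52 genes had a larger SD than SOX9. In MET_P the SD was 7.41 (median over genes 1.95) and 181 genes exceeded it. In MET_noP the SD was 4.63 (median 2.42) and 1227 genes exceeded it. Over all sites of the table the median SD within CON_P, CON_noP, MET_P and MET_noP was 5.85, 5.11, 4.54 and 5.25 points. At the SOX9 sites it was 14.1, 13.7, 9.12 and 8.70 points. Libraries 12 and 30 enter the CON values. The paper reports unequal read numbers for the groups, and their part in the spread was not tested.

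Blocks 1 to 3 varied together over the libraries and block 4 did not vary with them. Pearson's r over the 16 libraries was 0.88 between the means of blocks 1 and 3, 0.79 between blocks 2 and 3 and 0.73 between blocks 1 and 2. With block 4 it was 0.09, −0.21 and −0.08 for blocks 1, 2 and 3. The points are libraries of both diets, so the diet difference enters each r. Within block 3 the 406 pairs of sites had a median r of 0.71 (0.22 to 0.95).

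Block 3 also holds 7 pairs of sites that are 1 base apart, the cytosines on the opposite strands of one CpG, which RRBS reads from different DNA strands. The second position of the pair had the higher mean over the 16 libraries in 7 of 7 pairs, by 2.02 to 6.37 points. Within a library the 2 positions differed by a median of 8.69 to 12.7 points, and r between them over the libraries was 0.45 to 0.74. They were therefore alike in level and only partly alike in their order of libraries.

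The diet differences were unevenly divided over these strands. Averaged over the 7 pairs, MET_P was 12.96 points above CON_P at the first positions and 27.2 points above it at the second positions, and the second position gave the larger difference in 7 of 7 pairs. In the noP cows the order was turned, with 21.7 points at the first and 16.3 points at the second positions, and the second position gave the larger difference in 1 of 7 pairs. Library 12 of CON_noP weighs on this noP order, with 41.3% at the first and 63.9% at the second positions. The other CON_noP libraries had 21.4% to 37.1% at the first and 27.1% to 45.7% at the second positions. These strand differences were not recomputed with single libraries left out. Of the sites at which the groups did not overlap, both block 3 sites for P were second positions and all 3 block 3 sites for noP were first positions. The pairs lie close together in block 3, and sites of one strand there are often read on the same molecules. The counts of pairs and sites given here and above are therefore not independent.

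At the first positions the CON_P libraries 14, 18, 26 and 30 had 22.6%, 37.2%, 24.3% and 66.8%, and at the second positions they had 35.7%, 22.0%, 20% and 52.2%. The first positions of library 30 were thus above those of every other library, the highest MET_P value being 63.4%. In CON_noP the first positions ranged from 21.4% to 41.3% and the second from 27.1% to 63.9%, with library 12 the highest in both. The second positions were above the first in 9 of 16 libraries. The number of reads on each strand is not given. Library 26 had 40%, 10%, 30%, 20%, 20%, 10% and 40% at the single first positions, coarse steps that point to few reads. Repeated values occurred in other libraries of both diets too. Library 18 of CON_P had 15.4% at 58920183, 58920197, 58920207 and 58920224, and library 25 of MET_noP had 64.3% at 58920193 and 58920196.

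Pregnancy outcome did not separate the SOX9 levels. Pooled over the diets, the P libraries were 0.65 points above the noP libraries (two-sided exact permutation test of the outcome within each diet, 4900 splits, p = 0.877). The sign of so small a value depended on single libraries: it was −2.42 without library 30 and 3.18 without library 12 (exact permutation p = 0.608 and 0.516). The difference between P and noP was −1.91 points in CON and 3.22 points in MET. Both differences are smaller than the SDs of the groups concerned.

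Within the diets the outcome differences depended on single libraries. The value in CON was −8.05 points without library 30, 3.14 points without library 12, 0.49 without library 18 and 0.39 without library 26, and without library 16 or 28 it was −5.13 or −5.28 points. The value in MET was −0.03 points without library 15, the highest MET_P library. The difference between the outcome effects of the diets was 5.12 points and ranged from 0.08 to 11.3 points when one library was left out. It was not tested, since it shares its libraries with the diet comparisons.

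At the sites, the P mean exceeded the noP mean at 18 of 41 sites in CON (55.4% of all sites) and at 29 of 41 in MET (51.8% of all sites). No SOX9 site separated P from noP, where 1.99% of all sites did so in CON and 2.90% in MET, in either direction. In block 2 all 6 sites had a higher mean in MET_P than in MET_noP, by 4.37 to 18.7 points, with the largest value at 58919967. In CON the P mean was the higher one at 1 of these 6 sites. The 6 sites lie within 26 bases, so neither these counts nor those over the 41 sites are counts of independent sites.

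limma on M values, log2 ratios of the methylated share of calls to the rest, called none of the 41 sites between P and noP at a Benjamini-Hochberg adjusted p under 0.05, and none had an unadjusted p under 0.05. Of all sites, 0.000502% and 3.89% were called by these rules. The lowest SOX9 value was at 58920207, where P minus noP was −13.1 points (M difference −0.95, SE 0.50, limma adjusted p = 1). In the CON libraries this site had 23.1%, 15.4%, 6.67% and 44.8% in CON_P and from 20.8% to 64.7% in CON_noP. Taken as a gene, SOX9 had an M difference of 0.04 (SE 0.27, limma adjusted p = 0.999 over 8706 genes). Effects of a size hidden by the spread in CON were not detectable with these libraries.

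Among the 5725 genes with at least 5 sites, the SD of SOX9 over the 16 libraries was 11.6 points, where the median was 2.70 and 60 genes had a larger one. Its difference between MET and CON pooled over outcomes was 14.5 points, where the median was 0.61, and 6 genes had a larger one. SOX9 was chosen for this difference, so its place among the genes by diet is a description only. For P against noP the median gene differed by 0.36 points and 2278 genes exceeded SOX9.

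The genes whose mean methylation ran most like that of SOX9 over the 16 libraries were ALPK3 (r = 0.90), MYO7A (0.88), ABCA3 (0.87), UPB1 (0.87) and SPON1 (0.86), and the least alike were MOB3C (−0.87) and ENAH (−0.85). They lie on 6 other chromosomes. Over the 5724 genes compared the median r was 0.11, with 37 genes above 0.8 and 10 below −0.8. The points are again libraries of both diets, and the diet difference of SOX9 enters these values.

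ALPK3, a muscle kinase gene with 9 sites, came closest to SOX9 in size as well. It had 51.7% in MET_noP, 51.0% in MET_P, 38.9% in CON_noP and 38.8% in CON_P, and CON libraries 12 and 30 had 51.3% and 54.0% in a CON range from 25.6% to 54.0%. MYO7A, an unconventional myosin of sensory hair cells, ranged only from 61.2% to 76.6%, and library 12 had 76.4%. In MOB3C, libraries 12 and 30 had 70.1% and 72.0% where the highest CON library had 86.3%. Both CON libraries that stood high at SOX9 thus stood on the MET side at these genes too, which is what a high r selects for.

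Genes around SOX9 in its pathways were read by their own sites. No gene of the table passed limma with Benjamini-Hochberg adjustment over 8706 genes for diet or for outcome. At an unadjusted p under 0.05, 7.32% of the genes were higher and 1.47% lower in MET, and 2.57% were higher and 0.873% lower in P.

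Of the SOX family, 9 of 18 listed genes had at least 2 sites, and their median difference by diet was 0.43 points, where that of all genes was 0.55. SOX15 was the 1 member with an unadjusted p under 0.05, higher in MET by 12.4 points (limma adjusted p = 0.523), and it was named after its value was seen. SOX10, the neural crest factor with 54 sites, had 32.4% in MET_noP, 33.3% in MET_P, 30.1% in CON_noP and 31.2% in CON_P. SOX30, known from the male germ line, differed by 5.06 points by diet (limma adjusted p = 0.575) and SOX5, a partner of SOX9 in cartilage, by −3.05 points (0.798). No family member had an unadjusted p under 0.05 for outcome.

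Of the genes that SOX9 acts on or with in cartilage and gonad, 11 of 18 were measured, with a median difference by diet of 1.40 points. COMP, a cartilage matrix protein gene, and PTGDS, the gene of a prostaglandin D synthase, had unadjusted p under 0.05 and were higher in MET by 2.86 and 6.32 points (limma adjusted p = 0.544 and 0.509), and both were named after their values were seen. AMH, the anti-Müllerian hormone gene and a direct target of SOX9 in the testis, has 42 sites and differed by 2.82 points by diet (limma adjusted p = 0.773). Between P and noP it differed by −5.03 points (limma adjusted p = 0.999), and no gene of this list had an unadjusted p under 0.05 for outcome. COL11A2, a cartilage collagen gene, differed by 1.40 points by diet and GATA4, a gonadal transcription factor gene, by 2.70 points.

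The gland and uterine factors had 10 of 15 genes measured and none with an unadjusted p under 0.05 for diet or outcome. FOXA2, the transcription factor of uterine glands, had 19.6% in MET_noP, 21.3% in MET_P, 19.5% in CON_noP and 19.1% in CON_P. FOXA1 differed by 1.44 points by diet, and PAX8, a factor of Müllerian epithelium, by −2.70 points.

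Of the signals known to act on SOX9, 24 of 36 genes were measured, and 3 of them had an unadjusted p under 0.05. IHH, a hedgehog ligand with 2 sites, was higher in MET by 6.29 points (limma adjusted p = 0.505). The WNT ligand genes WNT5A and WNT11 were higher in P by 3.39 and 2.17 points (limma adjusted p = 0.999 for both). They were named after their values were seen. NOTCH1 (104 sites), WNT7A (95 sites) and the hedgehog effector GLI2 (43 sites) differed by 0.60, 0.27 and 0.63 points by diet.

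Brushed endometrium holds epithelium with leukocytes and stroma, and methylation at marker genes of these cells was set beside that of SOX9. The sum of markers could be read only as methylation, for 8 of 11 epithelial, 7 of 13 leukocyte and 4 of 6 stromal genes. Epithelial marker genes averaged from 26.6% to 44.6% over the libraries, with group means of 34.7%, 32.9%, 33.1% and 36.7% in CON_P, CON_noP, MET_P and MET_noP. Leukocyte marker genes had group means of 49.8%, 50.5%, 52.4% and 48.3%, and stromal ones 41.9%, 43.6%, 42.9% and 43.4%. Their r with SOX9 over the 16 libraries was −0.09, 0.08 and −0.0014. The part of cell composition in the SOX9 levels was not tested, and a change in the mix of cells and a change within cells cannot be told apart in such samples.

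The neighbourhood of SOX9 did not follow the gene as a whole. Within 250 kb on either side the table lists 106 further sites, nearly all without a gene name, in 28 groups of sites no more than 200 bases apart. Of the 17 groups with at least 3 sites, 8 had a higher mean in MET than in CON, with a median difference of −0.07 points and a range from −15.2 to 13.5, and 2 had r above 0.5 with SOX9. The most negative r were −0.68 and −0.59, 242.2 kb and 169.8 kb below SOX9, and −0.60, −0.68 and −0.75, 58.1 kb, 65.4 kb and 83.2 kb above it. In the RefSeq annotation, whose assembly is another one (ARS-UCD2.0), the next protein-coding gene above SOX9 is KCNJ2, a potassium channel gene.

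The largest difference in the direction of SOX9 was 142.7 kb below it (58776909 to 58776956, 6 sites). Its means were 88.8% in MET_noP, 88.6% in MET_P, 78.1% in CON_noP and 72.3% in CON_P, and CON libraries 12 and 30 had 85.5% and 86.3%. A group of 3 sites 44.5 kb below SOX9 (58875090 to 58875128) had 66.1%, 66.5%, 56.0% and 55.4% in the same order. The closest group of 3 or more sites lay 5.90 kb above (58927121 to 58927282, 12 sites), with a difference of 4.13 points between the diets and r = 0.58 with SOX9.

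The opposite direction occurred as well. At 242.2 kb below SOX9 (58677402 to 58677439, 4 sites) the means were 52.3% in MET_noP, 45.9% in MET_P, 61.7% in CON_noP and 66.8% in CON_P, with r = −0.68 and library 30 at 43.97%, the lowest of CON. At 65.4 kb above (58986582 to 58986607, 3 sites) MET_P differed by −21.9 points from CON_P and MET_noP by 3.84 points from CON_noP. A group of 12 sites 58.1 kb above SOX9 was methylated at 94.5% to 99.1% in every library and differed by −1.23 points between the diets, with r = −0.60.

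**Figure D5:**
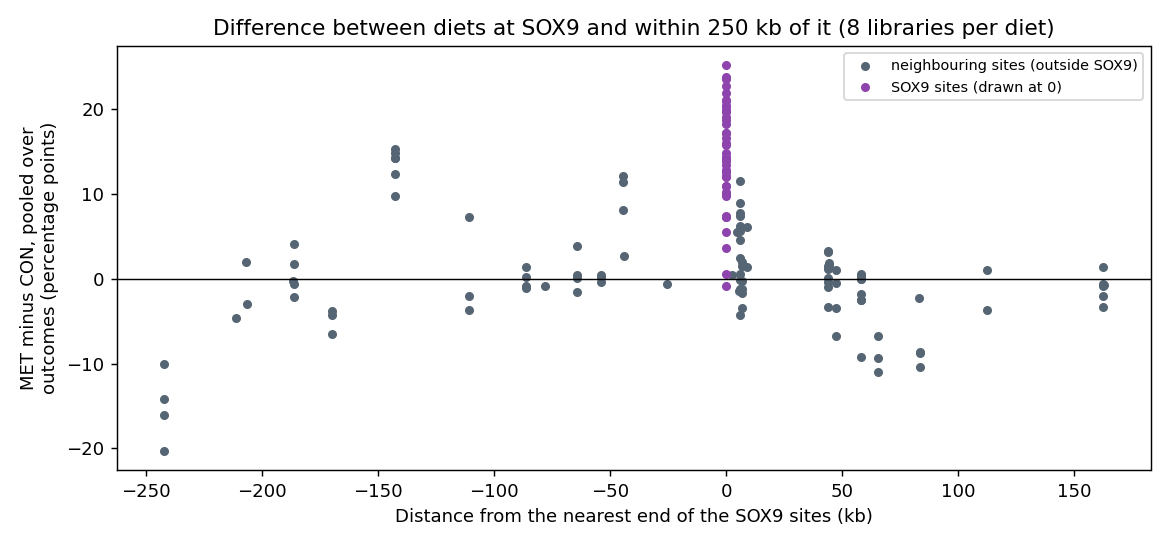
Difference between MET and CON pooled over outcomes (percentage points, 8 libraries per diet) at the 41 SOX9 sites (purple, drawn at 0) and at the 106 neighbouring sites (grey) against the distance from SOX9 in kb. SOX9 sites reach 25.2 points, neighbouring sites lie on both sides of 0, and the groups 142.7 kb and 242.2 kb below have means of 13.5 and −15.2 points.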

How the data were processed

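DNA methylation of brushed endometrial cells was measured by RRBS, in which DNA is cut with MspI, short fragments are bisulfite-treated and sequenced. After adapter removal (Trim Galore), the authors mapped the reads with Bismark to the ARS-UCD1.2 assembly, joined the runs of a library in SAMtools, and quantified each cytosine position above a minimum read number in SeqMonk, where positions without a value or with a value of 0 in any library were discarded. The values the authors deposited are percent methylation per position and library. Sites at or near 0 are therefore missing, read counts were not used here, and no depth or interval of a single value could be given. The main results carry no correction between libraries, and centring the libraries was run as an alternative.

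Table columns were assigned to groups by their headers. SOX9 was taken by its gene symbol (1 gene ID), averaged over sites, and described by library and group. P against noP was tested with an exact permutation test, and across all sites or genes (at least 2 sites) with limma 3.58.1 (R 4.3.3) on M = log2((percent + 1)/(100 − percent + 1)), one mean per group, with Benjamini-Hochberg adjustment over the whole table. The logistic regression used in the study needs counts. The limma step was tested on simulated data. Groups did not overlap where every library of one was above every library of the other.

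SOX9, the 4 gene lists, the marker lists and the tests were chosen with earlier results of these data known. Of each list the 3 genes with the most sites were named, and of all genes with at least 5 sites the 5 most and 2 least like SOX9 by Pearson's r. Alternatives changed the summary, scale, strands, site filter, library level and libraries used. No paired analysis by the labels' replicate numbers was made, because the columns carry other numbers. Sequences of the sites and their place in exons were not analysed here.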

Additional observations from a re-analysis of the deposited data

Results flagged for a closer look

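In groups of 4 libraries, a library was singled out where its gap to the nearest other library exceeded Dixon's 95% critical value as a share of the group's range. Of 20 combinations of group and stretch of sites (all 41 sites and the 4 blocks), 3 met this, where chance gives about 1 in 20. The combinations are not independent, since all 41 sites include the blocks and blocks 1 to 3 varied together. The count of 3 is therefore no measure of an excess. CON_P library 30 had 59.1% over all SOX9 sites, above the other 3 libraries of its group at 33.5% to 36.3%. It met the rule in no single block. MET_noP library 29 had 70.2% in block 2, below the other 3 at 76.7% to 78.0%. CON_noP library 28 had 12.02% in block 4, above the other 3 at 6.45% to 7.38%.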

How the results depend on the processing

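The 41 sites, 4 libraries per group and a read depth that is not given limit these results to large differences. Leaving out one library at a time gave 13.8 to 23.2 points for MET_P minus CON_P, 8.58 to 16.996 for MET_noP minus CON_noP, −8.05 to 3.14 for CON_P minus CON_noP, −0.03 to 5.40 for MET_P minus MET_noP, and 0.08 to 11.3 for the difference between the outcome effects. P minus noP pooled over diets ranged from −2.42 to 3.18 points and changed sign without library 15 (−0.97), 16 (−0.96), 25 (−0.05), 28 (−1.03) or 30 (−2.42). Of the other settings run, which included blocks 1, 2 and 3 alone (chosen after seeing the data) but not block 4 alone, block 1 turned the sign of CON_P minus CON_noP (0.52 points). Block 4, with means near 8%, had −0.30 points for MET_P minus CON_P, 0.47 for CON_P minus CON_noP and −0.35 for the difference between the outcome effects. The cause was not tested.

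Counts of separated sites, with one library left out (chosen after seeing the data), ranged from 5 to 33 for MET_P against CON_P, 4 to 14 for MET_noP against CON_noP, 0 to 2 for CON_P against CON_noP and 0 to 3 for MET_P against MET_noP. The matching shares of all sites were 3.02% to 4.61% and 2.95% to 5.39% for the diet comparisons (higher in MET). The outcome counts take either direction, whereas the shares of all sites were taken for each direction alone and are thus smaller. In CON they were 2.22% to 4.2% for higher in P and 1.46% to 2.05% for lower. In MET they were 2.74% to 3.53% for higher in P and 2.23% to 3.83% for lower. The count for MET_P against CON_P was 3 with strands merged and 3 with libraries centred on one mean. SOX9 sites with an unadjusted p under 0.05 between P and noP numbered 1 with a trended prior, 1 after centring on the median M, and 0 to 2 with a library left out (2 without library 30). The genes most like SOX9 shared 3 of 5 under Spearman's correlation. No SOX9 site or listed gene passed adjustment in any setting run.

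Sets of consecutive library numbers hold one library of each group, and they served as a replicate block. Libraries of one set did not deviate together (median r 0.01, 0 of 24 pairs above 0.1, 4 of 16 libraries most like their own set). What else the libraries of a set have in common is not given in the sources used here. With the block, P minus noP kept its 0.65 points (exact permutation p = 0.930) and 1 SOX9 site had an unadjusted p under 0.05.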
